A study of Mus musculus with 7 samples.

Results

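The genes described here are 10 genes known from heart muscle: Tnnt2, Tnni3, Actc1, Myh6 and Myl7 of the contractile apparatus, the natriuretic peptide genes Nppa and Nppb, and the transcription factor genes Tbx5, Gata4 and Nkx2-5. They were followed in RNA from mouse carotid artery on Affymetrix mouse genome arrays. Every probe set annotated to exactly 1 of these symbols was taken, which gave 15 of the 45101 probe sets on the array, and 4 of the 10 genes had more than 1 probe set. The genes were selected on signals of these same arrays: the list was drawn up with the differences between the groups known, and Tnnt2 had been chosen by its small p in that comparison. Differences between the groups are therefore given for the 10 genes as descriptions, with group means and SDs, and no test supports them.

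All offspring carried 1 null allele of Apoe (ApoE-/+), which encodes apolipoprotein E, a protein that clears lipoproteins from plasma. In the wild-type mother group (3 arrays) a normocholesterolemic wild-type female was crossed with an ApoE-/- male. In the ApoE-null mother group (4 arrays) a hypercholesterolemic ApoE-/- female was crossed with a wild-type male. The study asked whether the cholesterol status of the parents bears on susceptibility of the offspring to atherosclerosis. Mother and father changed together between the crosses, so their parts cannot be told apart. The labels give no age, sex, litter, strain or number of animals per array, and nothing says that the arrays came from separate animals, so spreads and p-values measure only the variation between these samples.

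Heart muscle contracts when calcium binds the troponin complex on the thin filament, which is built on cardiac actin, and frees it for the myosin heads of the thick filament. Myh6, Myl7 and Nppa are abundant in atrial muscle, Nppa and Nppb encode hormones that lower blood volume and pressure, and Gata4, Nkx2-5 and Tbx5 act together on many heart promoters. A carotid artery holds smooth muscle, which uses its own actin and myosin genes and does not contract through troponin.

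The promoters of Tnnt2, Actc1 and Myl7 are shown because Tnnt2 and Actc1 had the strongest signals of the 10 genes and differed in opposite directions between the crosses, while Myl7 did not rise above background on any array. Each sequence is the 250 bases before the first base of the gene in RefSeq, build GRCm38.p6, on the strand of the gene. Tnnt2 lies at chr1:135836084-135836333 on the plus strand, Actc1 at chr2:114052876-114053125 on the minus strand and Myl7 at chr11:5898783-5899032 on the minus strand. Capitals mark matches on either strand to 5 motifs. The first is CATTCC, the core of the site that TEAD factors bind in muscle promoters. The next is AGATAA, which GATA factors such as the product of Gata4 recognise. The third is AGGTGT, which resembles the site of T-box factors such as the product of Tbx5. The others are TATAAA, found near many gene starts, and the CArG box, the site of serum response factor in actin and other muscle genes.
Tnnt2: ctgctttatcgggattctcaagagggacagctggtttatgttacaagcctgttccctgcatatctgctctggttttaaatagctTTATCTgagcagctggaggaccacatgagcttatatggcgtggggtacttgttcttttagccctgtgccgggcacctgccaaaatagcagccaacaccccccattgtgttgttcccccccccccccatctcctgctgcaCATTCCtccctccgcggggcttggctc
Actc1: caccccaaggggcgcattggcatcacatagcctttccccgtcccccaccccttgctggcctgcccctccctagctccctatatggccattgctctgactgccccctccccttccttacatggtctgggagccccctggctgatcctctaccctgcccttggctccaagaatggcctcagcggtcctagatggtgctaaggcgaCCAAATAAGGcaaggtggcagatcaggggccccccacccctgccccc
Myl7: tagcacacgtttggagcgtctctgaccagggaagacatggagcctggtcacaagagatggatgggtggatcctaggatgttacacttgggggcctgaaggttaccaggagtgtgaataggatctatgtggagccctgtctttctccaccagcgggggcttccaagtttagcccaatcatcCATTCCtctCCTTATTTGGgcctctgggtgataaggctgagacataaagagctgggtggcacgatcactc
The Actc1 window held 1 CArG box, 47 to 38 bases before the start, and the Myl7 window held 1 at 61 to 52 bases, with CATTCC at 70 to 65 bases. The Tnnt2 window held CATTCC at 27 to 22 bases and AGATAA, on the opposite strand, at 166 to 161 bases. A second RefSeq start of Tnnt2 gave another window with none of these letters. The table gave 9 windows for 8 of the 10 genes. The CArG box was in 2 of these 9 windows and in 1.47% of all 32851 windows of this length, and CATTCC in 4 of 9 and in 12.6% of all. The GATA site, the T-box site and TATAAA were each in 2 of 9 windows, and in 9.99%, 11.8% and 12.4% of all. None of these marked matches overlapped another. A match is a run of letters and was not tested for binding.

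Signals are MAS5 values, a linear intensity that is never 0, so the level of unspecific hybridisation was read on each array from 27 probe sets for Bacillus transcripts that showed no sign of having been added, since their highest signal was 22.0. The highest of them was 10.5, 22.0 and 10 on wild-type mother arrays 1, 2 and 3, and 16.5, 19.0, 20.4 and 10.6 on ApoE-null mother arrays 1 to 4. This value is called the ceiling of the array. Of the 15 probe sets, 5 lay above the ceiling on all 7 arrays (33.3%), against 54.8% of all 45037 probe sets that are not controls, and 4 lay above it on 0 arrays. The 5 probe sets belonged to 4 genes: 2 to Tnnt2 and 1 each to Actc1, Gata4 and Nkx2-5. The ceiling is a low bar. Of 28 probe sets for 17 genes of retina, spermatids, pituitary, kidney tubule and pancreas, a list written after the data were examined, 6 (21.4%) also lay above it on every array. Their mean signals over the arrays were 35.5 to 333. Signal above the ceiling alone therefore does not show expression.

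**Figure D1:**
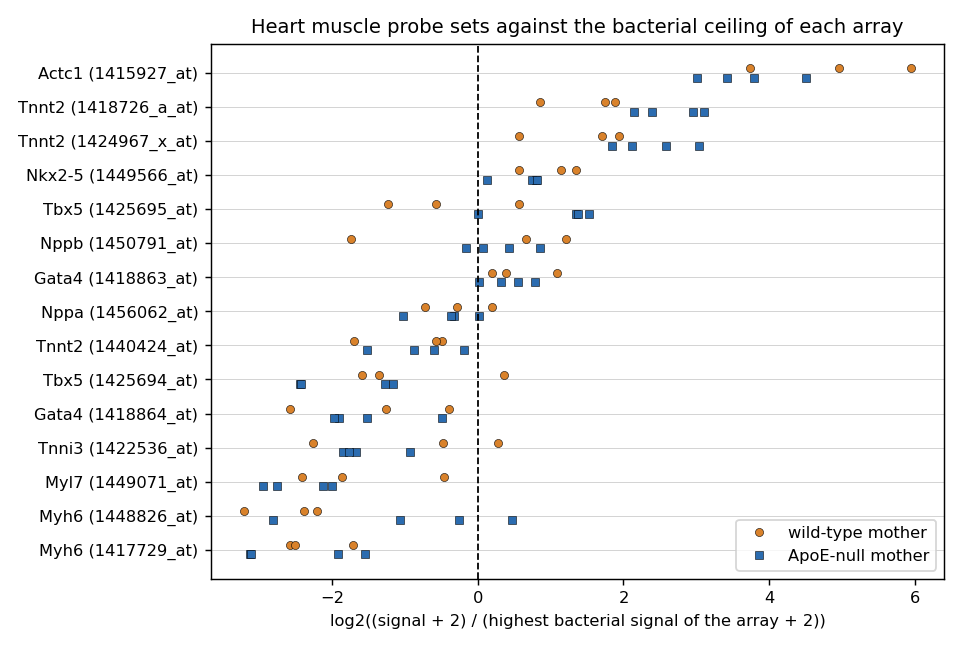
Signal of the 15 heart muscle probe sets on each array, as log2 of (signal + 2) over (highest bacterial signal of that array + 2). Circles are wild-type mother arrays and squares ApoE-null mother arrays. The dashed line at 0 is the ceiling. All 7 points lie right of it for 5 probe sets, and all 7 left of it for 4.

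Of the 10 genes, Myl7, Tnni3, Myh6 and Nppa were listed as the defining markers of heart muscle, with earlier results of these data known. These 4 were at or near background. Myl7, the atrial myosin light chain, had signals of 7.1, 2.5 and 1.3 with a wild-type mother and 2.6, 1.1, 0.9 and 0.9 with an ApoE-null mother, under the ceiling on all arrays. Tnni3, the inhibitory subunit of cardiac troponin, was at 13.1, 3.0 and 6.6 against 3.8, 3.8, 9.7 and 1.7, and only wild-type mother array 1 passed the ceiling. Neither gene showed a level that could be compared between the crosses.

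Myh6, the fast cardiac myosin heavy chain, had 2 probe sets of its own. The first (1417729_at) was at 0.1 to 5.3 on the 7 arrays, all under the ceiling. The other (1448826_at) was at 0.7, 0.6 and 0.3 with a wild-type mother and 13.4, 1.0, 8.7 and 15.5 with an ApoE-null mother. The groups did not overlap there, but only ApoE-null mother array 4 passed its ceiling, so no fold is given. Another 2 probe sets shared by Myh6 and Myh7 were at 0.6 to 8.6 and under the ceiling on every array.

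Nppa, which encodes atrial natriuretic peptide, had signals of 5.6, 17.6 and 11.8 with a wild-type mother and 12.8, 19.2, 15.4 and 4.2 with an ApoE-null mother, above the ceiling on 2 of 7 arrays. Nppb, which encodes B-type natriuretic peptide, was at 17.8, 5.2 and 25.8 against 17.4, 35.9, 18.1 and 15.0, above it on 5 of 7. The groups overlapped for both hormones. The 4 defining markers were thus above the ceiling on 0 to 2 of 7 arrays. Other genes of heart muscle, among them Myl4, Myl3, Mybpc3 and Ryr2, were above it on 6 or 7 arrays, and their values follow those of the members. The name of the list says where its genes are best known.

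Tnnt2 encodes cardiac troponin T, the subunit that anchors troponin to tropomyosin. Its brightest probe set (1418726_a_at) had signals of 39.8, 41.4 and 42.4 with a wild-type mother and 95.1, 160.8, 97.2 and 106.7 with an ApoE-null mother. Every ApoE-null mother array was above every wild-type mother array, and the wild-type mother arrays lay close together. The means were 41.2 ± 1.31 (SD, n = 3) and 115 ± 31.0 (SD, n = 4), a log2 difference of 1.40, or 2.65-fold on the log2(signal + 2) scale. The wild-type mother mean lay within the 35.5 to 333 of the probe sets of other tissues that passed the ceiling on every array. The fold may therefore rest partly on background. In whole tissue, fewer cells of a type and less RNA per cell cannot be told apart.

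The next probe set of Tnnt2 (1424967_x_at), whose name marks probes that can also match other transcripts, was at 38.9, 33.6 and 44.0 against 78.4, 124.3, 78.4 and 101.7. Its groups did not overlap either, and ApoE-null mother array 2 was again the highest. The means were 38.8 ± 5.20 (SD, n = 3) and 95.7 ± 22.0 (SD, n = 4), a log2 difference of 1.24. The last Tnnt2 probe set (1440424_at) was at 1.7 to 14.3, under the ceiling on all arrays. When each array was left out in turn, the log2 difference of the brightest probe set stayed between 1.23 and 1.48 and that of the next between 1.11 and 1.33.

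Actc1 encodes cardiac alpha-actin, the thin filament protein on which troponin sits in the heart, and is also made in other muscle during development. Its signals were 385.4, 318.9 and 739.4 with a wild-type mother and 253.4, 166.6, 238.3 and 285.6 with an ApoE-null mother. All ApoE-null mother arrays were below all wild-type mother arrays, and wild-type mother array 3 stood well above the others. The means were 481 ± 226 (SD, n = 3) and 236 ± 50.3 (SD, n = 4), a log2 difference of -0.95. Without wild-type mother array 3 the log2 difference was -0.59, and without wild-type mother array 2 it was -1.20. Actc1 and Tnnt2 code for neighbouring parts of 1 filament in heart muscle. They differed between the crosses in opposite directions, and both are on a list drawn up with these differences known.

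Tbx5, a T-box factor of the heart and forelimb, was seen by a single probe set above the ceiling (1425695_at). Its signals were 16.5, 8.2 and 6.1 with a wild-type mother and 45.3, 58.7, 20.5 and 30.8 with an ApoE-null mother, without overlap. Only 1 of the 3 wild-type mother arrays was above its ceiling. On ApoE-null mother array 3 the signal of 20.5 was barely above the ceiling of 20.4. The means were 10.3 ± 5.50 (SD, n = 3) and 38.8 ± 16.7 (SD, n = 4), and the log2 difference of 1.73 rests partly on background. It was 1.47 to 2.07 when each array was left out, and 1.03 with a pseudocount of 16. The other Tbx5 probe set (1425694_at) was at 1.4 to 13.4, above the ceiling only on wild-type mother array 3, so no fold is given for it.

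Gata4, a zinc finger factor of heart and gut, had signals of 14.3, 25.4 and 23.5 with a wild-type mother and 16.7, 24.2, 31.0 and 19.8 with an ApoE-null mother on its brighter probe set (1418863_at). The groups overlapped, at means of 21.1 ± 5.94 (SD, n = 3) and 22.9 ± 6.20 (SD, n = 4). Its dimmer probe set (1418864_at) was at 2.0 to 11.1 and under the ceiling on every array. Nkx2-5, a homeobox factor of heart progenitors, was at 16.5, 50.8 and 28.5 against 30.2, 33.1, 22.5 and 20.2. These groups overlapped too, with wild-type mother arrays as both the lowest and the highest, at means of 31.9 ± 17.4 (SD, n = 3) and 26.5 ± 6.14 (SD, n = 4), and the log2 difference was -0.15.

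**Figure D2:**
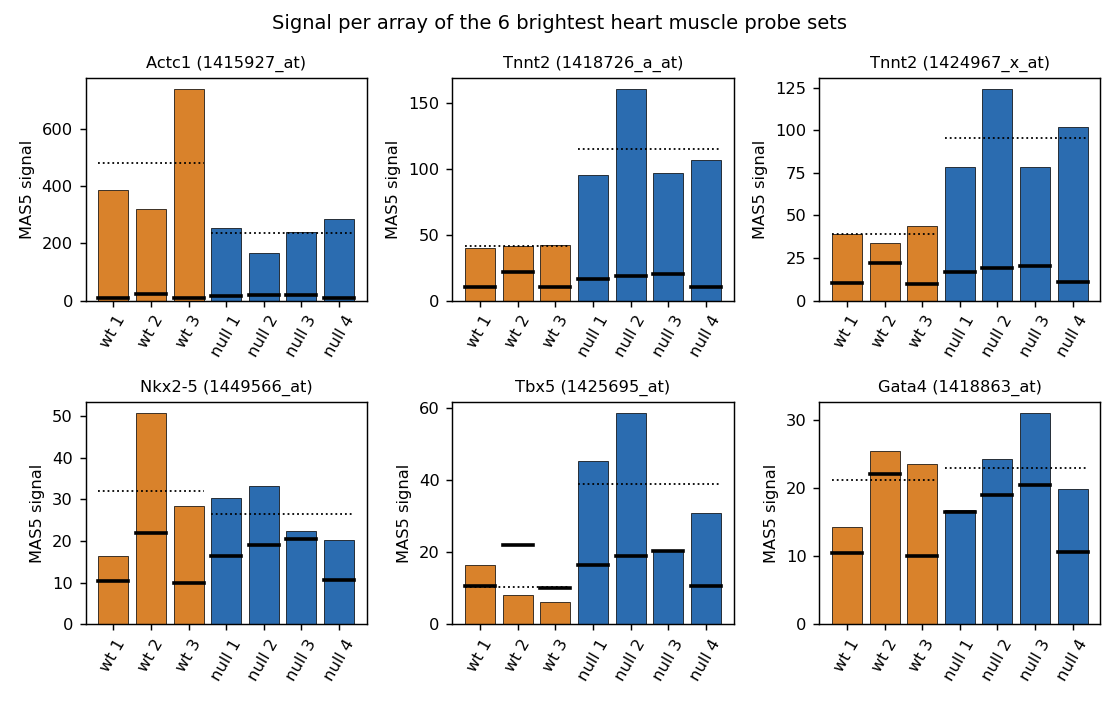
MAS5 signal per array of 6 heart muscle probe sets, with wild-type mother (wt) arrays in orange and ApoE-null mother (null) arrays in blue. Short black lines are the ceiling of each array and dotted lines the group means. Tnnt2 is at 39.8 to 42.4 on the wild-type mother arrays and at 95.1 to 160.8 on the ApoE-null mother arrays for its brightest probe set, Actc1 is higher on every wild-type mother array, and Gata4 and Nkx2-5 overlap.

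A filter that kept probe sets with a mean signal above 23.6 left 5 of the 15: 2 of Tnnt2 and 1 each of Actc1, Tbx5 and Nkx2-5. Tbx5 was just inside, with a mean of 26.6 that it reached through the ApoE-null mother group, and Gata4 just outside, with 22.1. Of these 5, 0 passed the limma fit over all kept probe sets (adjusted p under 0.05), where 0.0037% of 27027 passed, and 2230 had an unadjusted p under 0.05. Groups did not overlap with the ApoE-null mother group higher for 3 of the 5 (4.01% of all kept probe sets) and with it lower for 1 of the 5 (4.01% of all). Since these genes were chosen with this comparison in view, nothing is read from these counts.

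**Figure D3:**
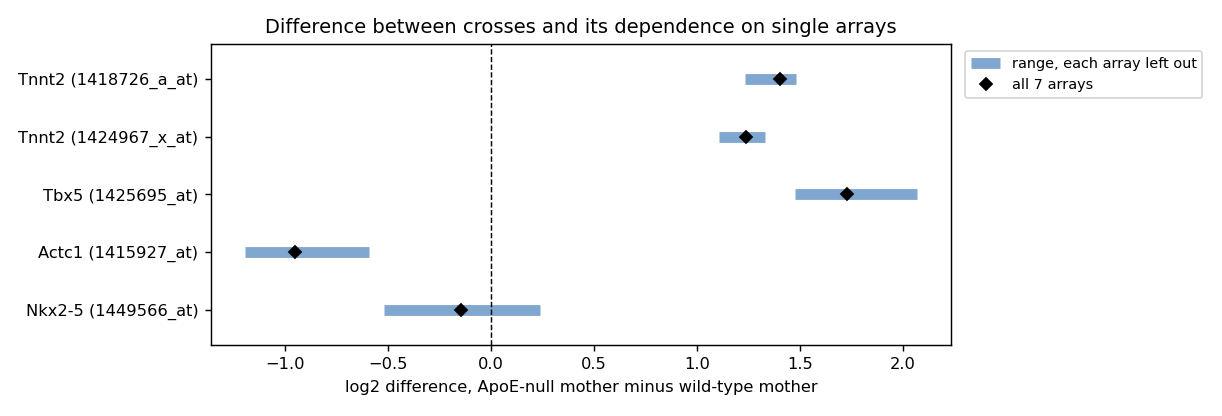
Log2 difference (ApoE-null mother minus wild-type mother) of the 5 heart muscle probe sets kept by the filter. Diamonds use all 7 arrays, and blue bars span the values when each array is left out. The bar of Actc1 runs from -1.20 to -0.59, and that of Nkx2-5 crosses 0.

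Other genes of the cardiac sarcomere did not separate the crosses. Of 21 listed genes, all with a probe set, 13 were measured (kept by the filter), 6 with a positive and 7 with a negative difference. Their median log2 difference was -0.02, beside -0.01 over all 12713 genes. None passed limma, where 0.00787% of genes passed. An unadjusted p under 0.05 was found for 2230 of all 27027 kept probe sets and for 1 of these 13 genes. That gene was Ttn, the giant spring of the sarcomere, at 3.1, 178.6 and 19.1 against 9.8, 0.9, 2.1 and 2.5 (limma, adjusted p = 0.604). Its signal was high only on wild-type mother array 2 and was above the ceiling on 2 of 7 arrays. With an ApoE-null mother mean of 3.8, it was kept by the filter only through the wild-type mother group. Tnnc1, the calcium-binding troponin subunit of the heart and of slow muscle, was at 17.6, 32.0 and 16.7 against 37.8, 32.5, 36.8 and 22.2, with overlap and a log2 difference of 0.54 (limma, adjusted p = 0.711). With a wild-type mother mean of 22.1, Tnnc1 was kept by the filter through the ApoE-null mother group. Myoz2 and Xirp1, of the Z-disc and of cell junctions in striated muscle, had log2 differences of -0.48 and -0.43 (limma, adjusted p = 0.680 and 0.635).

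The myosin light chains and other striated muscle genes of that list were seen at very different distances from background. Of the 21 genes, 11 were above the ceiling on all 7 arrays, a share near the 54.8% of all probe sets. These 11 were Myl4, Myl3, Tnnc1, Actn2, Myoz2, Xirp1, Tcap and Myom1, all of striated muscle, and Tpm1, Ldb3 and Nexn, which smooth muscle also uses. Myl4, the light chain of atrial and embryonic muscle, was at 125.9, 251.3 and 182.6 with a wild-type mother and 167.5, 125.8, 121.5 and 173.4 with an ApoE-null mother, with overlap. Myl3, the light chain of ventricle and slow muscle, was at 12.2 to 35.9, and Mybpc3, the cardiac myosin-binding protein, was at 10.3 to 56.4 and above the ceiling on 6 of 7 arrays. Myl2, the ventricular regulatory light chain, was at 10.3 to 27.4 and Myh7, the slow myosin heavy chain, at 6.0 to 34.6, each above it on 5 of 7. Mybphl, an atrial myosin-binding protein gene, was at 0.8 to 15.9 and above it on none.

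Of 17 genes for calcium handling and conduction, 15 had a probe set and 11 were measured, 5 positive and 6 negative, with a median log2 difference of -0.01. None passed in limma and 0 had an unadjusted p under 0.05. Atp2a2, the calcium pump of heart and smooth muscle, was at 4840.5 to 6258.8 against 4654.6 to 5096.9, a log2 difference of -0.14 (limma, adjusted p = 0.769). Casq2, which stores calcium in the sarcoplasmic reticulum, and Jph2, which holds that store to the cell membrane, had log2 differences of -0.33 and -0.22, and the potassium channel gene Kcnj3 of 0.39 (limma, adjusted p = 0.770, 0.787 and 0.835). With a wild-type mother mean of 21.5, Kcnj3 was kept by the filter through the ApoE-null mother group. Ryr2, the calcium release channel of the heart, was at 99.7 to 183.1 and above the ceiling on all 7 arrays. The atrial genes Sln and Gja5 were above the ceiling on 2 and 0 arrays.

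Of 17 other cardiac transcription factors, 16 had a probe set and 14 were measured, 6 positive and 8 negative, with a median log2 difference of -0.06. None passed in limma, and 1 had an unadjusted p under 0.05, beside 2230 of all 27027 kept probe sets. The groups did not overlap, with the ApoE-null mother group higher, for 2 of the 14, against 4.34% of all genes, and for 0 of 14 with it lower, against 4.24%. Zfpm2, a cofactor of Gata4, was at 347.4, 305.1 and 305.5 against 428.5, 467.0, 453.7 and 392.2, a log2 difference of 0.44 (standard error 0.14; limma, adjusted p = 0.523). Every ApoE-null mother array was above the wild-type mother arrays. Mef2a, a MADS-box factor of all muscle, was at 1027.0, 1186.8 and 1134.2 against 1300.7, 1390.9, 1475.0 and 1224.8, a log2 difference of 0.27 (limma, adjusted p = 0.617). Tbx18 and Mef2c had log2 differences of 0.31 and 0.18 (limma, adjusted p = 0.649 and 0.744).

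Of 9 other genes of the natriuretic peptide system, 8 had a probe set and 7 were measured, 5 positive and 2 negative, with a median log2 difference of 0.11 and none past limma or under an unadjusted p of 0.05. Npr1, the receptor for both cardiac peptides, had a log2 difference of -0.54, and Npr3, the clearance receptor, of 0.23 (limma, adjusted p = 0.750 and 0.787). With an ApoE-null mother mean of 20.8, Npr1 was kept by the filter through the wild-type mother group. Corin, the protease that activates the product of Nppa, and Prkg1, the kinase below the receptors, had log2 differences of -0.45 and 0.19 (limma, adjusted p = 0.810 and 0.765).

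Other cell types in the samples were read from their own lists. Smooth muscle genes were above the ceiling on all arrays in 11 of 11, with a median log2 difference of -0.07 and a summed signal of 51611 to 69959 on the wild-type mother arrays and 53617 to 67607 on the ApoE-null mother arrays. Acta2, the smooth muscle actin, had a log2 difference of 0.03, Actg2 of -0.34, Myl9 of -0.12, Mylk of 0.21 and Synpo2 of -0.12 (limma, adjusted p = 0.628 to 0.964).

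Skeletal muscle genes had a summed signal of 2913 on wild-type mother array 2 and of 262 to 499 on the other 6 arrays. Of 16 genes, 11 were measured, and 7 of these had a mean under the filter value in the ApoE-null mother group, so that they were kept through the other group. Without wild-type mother array 2, 5 of the 11 had a mean under it. Their 10 negative differences and the median of -1.50 are therefore not read as support. None passed limma, and 2 had an unadjusted p under 0.05, beside 2230 of all 27027 kept probe sets. For all 16 genes the groups overlapped. Acta1, the skeletal muscle actin, was at 348.3 there, where the other 6 arrays had 1.0 to 69.4, with Tnnc2, Tnnt3 and Pvalb also at their highest on that array (limma, adjusted p = 0.523 to 0.610 for these 4 genes). Wild-type mother array 2 was also the only one with a low Xist signal (41.2 against 5174.1 to 5930.9). On that array Tnnt2 was at 41.4, level with its group, and Actc1 at 318.9, the lowest of its group. Without wild-type mother array 2 the log2 difference of Tnnt2 was 1.41, against 1.40 with all arrays. That of Actc1 was -1.20, against -0.95 with all arrays.

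Thymocyte genes had a higher summed signal in the ApoE-null mother group. Their list was written with earlier results of these data known, and Tnnt2 was chosen by this same comparison. Of 9 genes, 8 had a probe set. The groups did not overlap, with the ApoE-null mother group higher, for 7 of the 8 (4.34% of all genes measured), and they overlapped for Ptcra, a subunit of the pre-T cell receptor. Their summed signal was 169.1, 92.5 and 56.4 with a wild-type mother and 737.9, 649.3, 433.0 and 520.3 with an ApoE-null mother. The filter kept 6 of the 8, and 5 of these 6 only through the ApoE-null mother group, so their 6 positive differences and the median of 2.57 are not read as support. None passed in limma. An unadjusted p under 0.05 was found for 6, beside 2230 of all 27027 kept probe sets, and this count is not read as support either. Themis, above the ceiling on all arrays, had a log2 difference of 1.88. Those of Rag1, Dntt and Ccr9 were 3.64, 3.01 and 3.27, but with a wild-type mother Rag1 was above the ceiling on 2 of 3 arrays and Dntt and Ccr9 on 1 of 3, so these values rest partly on background (limma, adjusted p = 0.0901 to 0.317 for the 4 genes). The summed thymocyte signal and Tnnt2 were both higher on every ApoE-null mother array than on any wild-type mother array, the split known when they were chosen. Within the groups, the thymocyte sum was highest on wild-type mother array 1 and ApoE-null mother array 1. Tnnt2 was highest on wild-type mother array 3 and ApoE-null mother array 2. The part of thymus RNA in the Tnnt2 signal was not tested.

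Brown fat genes, all 7 measured, had positive differences in 7 of 7, against 48.8% of all genes, with a median log2 difference of 0.78. None passed limma and 2 had an unadjusted p under 0.05, beside 2230 of all 27027 kept probe sets. As this list too was written with earlier results known, these counts are not read as support. The groups overlapped for 6 of these 7 genes. Their summed signal overlapped, at 2363 to 10363 against 8019 to 12794, and was lowest on wild-type mother array 3, the array with the highest Actc1 signal. Ucp1, Elovl3, Cox7a1 and Ppargc1a had log2 differences of 1.88, 1.45, 1.10 and 0.44 (limma, adjusted p = 0.429 to 0.712). The part of fat in the Actc1 signal was not tested. Of 7 lung and airway genes 3 were measured, with a median log2 difference of 0.35, and of 6 genes of mesothelium and epicardium 2 were measured, with a median of -0.07. None of these 5 genes passed in limma or had an unadjusted p under 0.05. Among them Foxf1, a factor of lung and vessel mesenchyme, had a log2 difference of 0.35, Sftpb of 0.49 and Sftpc of -0.27, and Tcf21 and Aldh1a2 of -0.25 and 0.10. With an ApoE-null mother mean of 23.4, Sftpc was kept by the filter through the wild-type mother group.

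**Figure D4:**
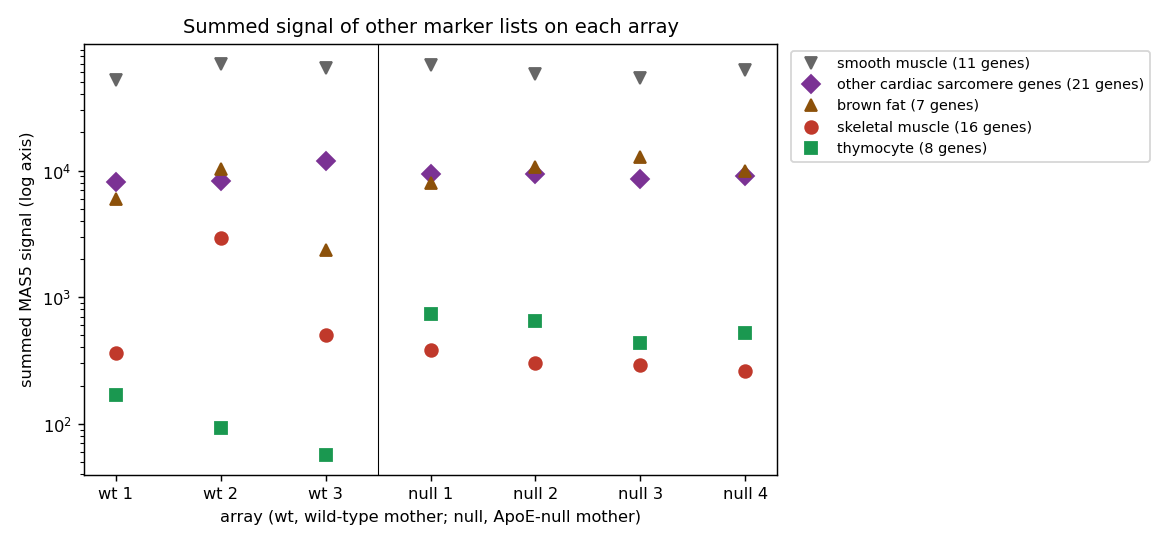
Summed MAS5 signal of 5 marker lists on each array, on a log axis, over the brightest probe set of each gene. Wild-type mother (wt) arrays are left of the line and ApoE-null mother (null) arrays right of it. Skeletal muscle genes stand out at 2913 on wt 2, thymocyte genes are lower on all 3 wild-type mother arrays (56.4 to 169.1) than on the other 4 (433.0 to 737.9), and smooth muscle genes overlap.

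The genes most like each of the 4 members above the ceiling on all arrays were taken by Pearson correlation of log2 signals over the 7 arrays, among 11365 genes above the ceiling on every array. They are given as a description with no test. For Tnnt2 they were Exoc2 (r = 0.972), Ufsp2 (r = 0.970) and Htra4 (r = 0.960). For Actc1 they were Eif6 (r = 0.990), Rab31 (r = 0.983) and Rab43 (r = 0.979), for Gata4 Fgd2 (r = 0.929), Suco (r = 0.914) and Pstk (r = 0.905), and for Nkx2-5 Asb6 (r = 0.979), Pogk (r = 0.978) and Clic4 (r = 0.974). No gene of the cardiac, skeletal or smooth muscle lists was among these 12. The members themselves had been left out, and the muscle lists hold few of the 11365 genes, so nothing is read from this. Within the groups, after each group's mean was taken away, the correlations with Tnnt2 were 0.81 for Exoc2, 0.63 for Ufsp2 and 0.48 for Htra4, and those with Actc1 were 0.98 for Eif6, 0.96 for Rab31 and 0.97 for Rab43.

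Across the arrays as a whole, median signals were 36.0 to 42.1 and 61.9% to 74.7% of probe sets exceeded the ceiling. Gapdh signal from the 3 prime end over that from the 5 prime end was 5.03 to 7.80, highest on wild-type mother array 2. Actb, as a control gene, had a log2 difference of -0.10 (standard error 0.14; limma, adjusted p = 0.878). The number of arrays limits the precision of every difference given.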

How the data were processed

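Per the labels' protocols, dissected carotid arteries were frozen in liquid nitrogen, and RNA was amplified in 2 cycles from an oligo-dT primer and labelled with biotin. The deposited table holds 1 intensity per probe set and array on a linear scale, the MAS5 signal, computed by the authors in GCOS, as the submitters' processing notes record. Neither version is given in these sources. Each array had a 2% trimmed mean of 200.0, so it had been scaled before deposit, and this was kept. No detection calls were used.

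Groups follow the cross in the labels, and arrays are numbered in accession order. All 15 member probe sets matched a gene of GRCm38.p6 by gene ID, and 0 symbols changed. The 10 members and all gene lists were chosen with earlier results of these data known. Signals became log2(signal + 2). The 64 control probe sets were left out, and probe sets whose mean passed the 40th percentile (23.6), 27027 in all, were kept. They were fitted in limma 3.58.1 (R 4.3.3; lmFit, eBayes with an intensity trend) as the ApoE-null minus the wild-type mother group, with Benjamini-Hochberg adjustment and a threshold of 0.05. The steps were tested on simulated data. A gene is its brightest kept probe set (12713 genes). From each other list the 4 genes with the smallest p were named. The 3 genes of highest correlation were also named for each member above the ceiling on at least 6 arrays. Predicted names and the members themselves were passed over there. Genes outside this rule were named after their values were seen. Alternatives were the pseudocount, filter, trend, quantile normalization, probe set choice, ceiling and each array left out.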

Additional observations from a re-analysis of the deposited data

Results flagged for a closer look

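In the group of 4 ApoE-null mother arrays, 1 array lay far from the others for 3 of the 15 member probe sets. Distance was taken relative to the range of the group, on linear signals, and each time the far array was the highest. Chance gives about 5% of groups only for normally distributed values, so the count is not read as an excess. Nppb was at 35.9 on ApoE-null mother array 2, against 15.0 to 18.1 on the other arrays of the group. The dimmer Gata4 probe set was at 11.1 on ApoE-null mother array 1, under the ceiling of 16.5. Myl7 was at 2.6 on the same array, also under that ceiling. The wild-type mother group, with 3 arrays, was not checked in this way.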

How the results depend on the processing

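Over all probe sets, 1 was called in limma with the settings used (Adcy1), 2 with quantile normalization and 0 without an intensity trend, where 2107 had an unadjusted p under 0.05. With each array left out in turn the count was 0 to 18: 18 without wild-type mother array 1, 4 without wild-type mother array 3, and 0 without wild-type mother array 2 or any 1 of the ApoE-null mother arrays. None of the other alternatives moved that count beyond 1.5 times. The count of 5 member probe sets above the ceiling on all arrays stayed within 1.5 times under every ceiling, scaling and left-out array. Of 110 recomputed differences of member genes, 105 moved by less than the spread between replicates. The other 5 moved by more. They were Tnnt2 averaged over its probe sets, and Tbx5 and Myh6 each averaged so and with a pseudocount of 16. This count does not show stability. For genes with 1 probe set the averaged value could not change. Changes of sign within the spread were counted with the 105. They occurred for Nppa, Nppb, Gata4 and Nkx2-5 with single arrays left out. Quantile normalization left the median of all differences near 0. No paired analysis was possible because the labels give the crosses no shared replicate numbers. Signal over background limits Tbx5, Gata4, Nkx2-5, the dimmer members and the wild-type mother level of Tnnt2.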
